A study of Mus musculus with 9 samples.

Results

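The genes described here are a list of B lymphocyte transcripts read in RNA-seq libraries of sorted mouse peritoneal macrophages. The list names 31 symbols, and its members are the rows of the deposited count tables whose gene identifier maps to one of these symbols in GENCODE mouse release M21. This gave 30 genes of the 47729 in each table. The remaining symbol, Faim3, is an older name of Fcmr, which is itself on the list. No expression value entered the matching of symbols to rows. The list itself was drawn up with earlier results of these data in view, so no p-value is given for the list as a whole. All 30 members passed the filter on low counts and were tested with the other genes, 13223 in all.

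B lymphocytes are, with macrophages, a major population of the peritoneal cavity. They recognise antigen through the B cell receptor, a membrane immunoglobulin made of heavy and light chains that is held by the signalling pair CD79A and CD79B. The factors EBF1 and PAX5 install and keep this programme, and surface receptors such as CD22 and Siglec-G set how strongly the receptor signals. The cavity holds conventional B cells, with high IgD and CD23, and B-1 cells, a self-renewing innate-like population with high IgM and low IgD that depends on the IL-5 receptor and draws on a restricted set of antibody variable segments.

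Macrophages were sorted by flow cytometry in 3 groups of 3 libraries, and the series title names the conversion of alternatively activated macrophages. All mice carried one copy each of Cx3cr1CreERT2-IRES-EYFP, in which the Cx3cr1 promoter drives a tamoxifen-inducible Cre with a yellow reporter, and of Rosa26-stopfl-tdTomato, a red reporter that Cre switches on. Every group received intraperitoneal complexes of 5 µg IL-4 with 25 µg of antibody to IL-4 on alternate days, beginning 4 days ahead of harvest. Mice of the monocyte-derived group were given 2 ml of thioglycollate, an irritant that recruits monocytes, and their cells were taken on day 4. Mice of the converted group had 2 ml of thioglycollate and then a tamoxifen diet lasting 10 weeks. For the resident group no treatment of its own is listed. RNA was taken up with one of a pair of column kits, chosen by cell number, and libraries were made with a low-input kit; which column kit served which library is not stated in the labels, nor are sort gates and ages. No label states that replicate libraries are from different animals, so p-values describe only how much these libraries vary, and that variation may be technical.

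Single libraries held 15220884 to 20496258 reads in genes. Replicate libraries were never duplicates of one another (the smallest chi-square per degree of freedom was 5.99), so each was counted. All 10 genes of a list of macrophage markers, among them Adgre1, Csf1r and Mertk, were read in every group, with a summed level of 5087 to 8101 CPM (read counts scaled to library size) among monocyte-derived, 7077 to 8858 among converted and 7523 to 7838 among resident libraries. The sums cover opposite shifts. Against monocyte-derived libraries 3 of the 10 were called higher and 4 lower, in resident as in converted ones. Of all genes 24.9% to 25.8% were called in each direction there. Adgre1 had means of 343, 3077 and 2978 CPM in the monocyte-derived, converted and resident groups, and Lyz2 1837, 576 and 437. Sex-linked transcripts split the libraries: the Y-linked Ddx3y had 0, 5190 and 5218 reads in the monocyte-derived, converted and resident groups, and Xist 3247, 0 and 2. Sex, the recent irritant and the tamoxifen diet cannot be told apart from the group in the comparisons they touch.

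B lymphocyte transcripts were high in resident macrophage libraries and, for most members, low in both other groups. Resident libraries had 25 of the 30 members higher than monocyte-derived libraries and 2 lower, with 3 not called (edgeR's quasi-likelihood test, adjusted p under 0.05); over all genes tested 50.7% were called, 25.7% as higher and 24.9% as lower. The median log2 difference was 4.31 over the members and 0.00 over all genes. Against converted libraries, resident libraries had 25 members higher and 5 not called, where 6.07% of all genes were called and 4.26% were higher. The median log2 difference here was 3.21 over the members and -0.01 over all genes. Converted libraries had 14 members higher than monocyte-derived ones, 2 lower and 14 not called, with 50.7% of all genes called, 25.8% higher and 24.9% lower. That comparison had a median log2 difference of 1.11 over the members and -0.01 over all genes. The count of higher members there stood above the share over all genes, and the count of lower members, Blnk and Tnfrsf13b, below it. These comparisons share their groups of libraries and are not independent of one another. In bulk libraries fewer cells of a type and less RNA per cell cannot be told apart.

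For 12 of the 30 members no library of one group overlapped another, in the order resident above converted above monocyte-derived, an order that 3.36% of all genes kept. They were Cd79a, Ms4a1, Ighd, Igkc, Pax5, Ebf1, Pou2af1, Fcer2a, Bank1, Fcmr, Cd55 and Cxcr5. Taken pair by pair, resident libraries lay wholly above monocyte-derived ones for 26 members (30.6% of all genes) and wholly below for 2 (28.9%). They lay wholly above converted ones for 27 (17.7%) and wholly below for 1, Zcwpw1 (19.6%). Converted libraries lay wholly above monocyte-derived ones for 13 (28.6%) and wholly below for 2 (27.7%). Within each group the same library was the highest for most members. Converted library 2 was the highest of its group for 26 of 30 members, resident library 3 for 26 and monocyte-derived library 3 for 23. The share of all genes with these libraries highest was not counted, so the pattern cannot be called particular to the members. Converted library 2 had a median of 1.66 times the mean of the other 2 converted libraries over the 30 members, resident library 3 a median of 1.235 times and monocyte-derived library 3 a median of 1.68 times. Calls that were lost, and differences that moved by over 1.5 times, on leaving out one of these libraries are given with and without it.

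**Figure D1:**
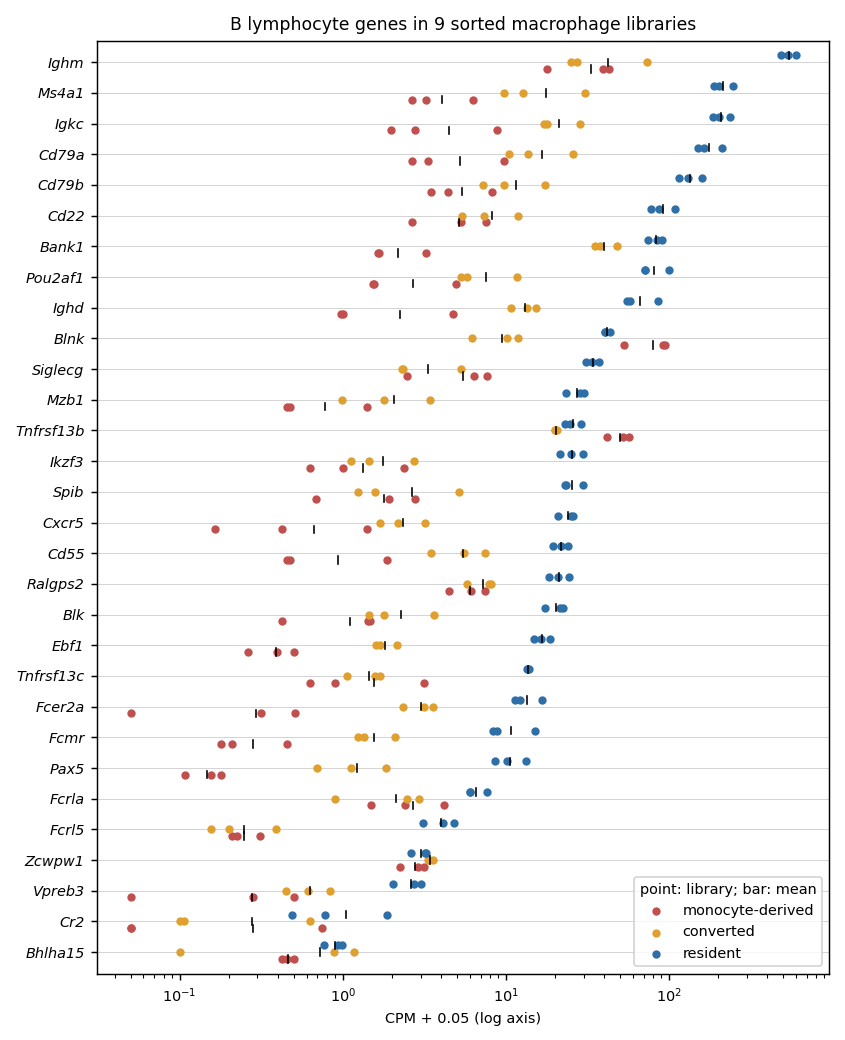
Level of each of the 30 B lymphocyte genes in 9 libraries, as CPM plus 0.05 on a log axis, ordered by the resident mean; points are libraries and bars are group means. Resident points lie to the right of both other groups for most genes, Blnk and Tnfrsf13b are highest in monocyte-derived libraries, and Zcwpw1 is at 2.19 to 3.52 CPM throughout.

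In resident libraries the 5 antigen receptor chains were the most abundant members per kilobase of exon. On that scale these libraries had a mean of 391 CPM of Igkc, the kappa light chain constant region, 289 of the mu heavy chain Ighm, 121 of Cd79a and 94.7 of Cd79b, against 34.9 of the delta heavy chain Ighd. All 5 were higher in resident than in monocyte-derived and in converted libraries, and 4 were higher in converted than in monocyte-derived ones, all but Ighm. In what follows CPM are not divided by length, and values of single libraries are in the order 1, 2 and 3. Folds and log2 differences are edgeR's fitted values. Several members overlap another annotated gene, among them Ms4a1, Igkc, Pax5, Ebf1, Pou2af1, Cd22, Bank1, Tnfrsf13b, Ralgps2, Zcwpw1, Cxcr5, Cd55, Vpreb3 and Mzb1. The labels do not say whether strand was used in counting, so reads of pairs on opposite strands may not be separable. Some pairs, among them those of Igkc, Pou2af1 and Mzb1, lie on the same strand, where strand would not separate the reads.

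Cd79a (chromosome 7, 24897381 to 24902197, GRCm38), the alpha signalling chain of the receptor, had 2.61, 3.29 and 9.71 CPM among monocyte-derived, 10.4, 25.85 and 13.6 among converted and 152, 164.5 and 212 among resident libraries. No group overlapped another, although monocyte-derived library 3 came close to converted library 1. The resident level was 34.5-fold the monocyte-derived one (log2 5.11 ± 0.51 SE, adjusted p = 3.49e-05) and 10.6-fold the converted one (log2 3.41 ± 0.45, adjusted p = 0.00385). The converted level was 3.24-fold the monocyte-derived one (log2 1.70 ± 0.48, adjusted p = 0.0153). This last call rested on single libraries. Over 17 alternatives its adjusted p ran from 0.00152 to 0.0821, at 0.0668 and 0.0594 on leaving out monocyte-derived library 1 or 2, 0.0601 without converted library 2 and 0.0821 with no filter on low counts. Without monocyte-derived library 3 the log2 differences were 2.49 for converted and 5.90 for resident libraries.

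Cd79b (chromosome 11, 106311341 to 106314762), the beta chain, had 4.37, 3.41 and 8.16 CPM among monocyte-derived, 7.23, 17.3 and 9.73 among converted and 115, 132 and 159.5 among resident libraries. The monocyte-derived and converted ranges overlapped, and resident libraries stood far above both. Resident libraries were 25.7-fold above monocyte-derived (adjusted p = 1.05e-05) and 11.9-fold above converted ones (log2 3.57 ± 0.36, adjusted p = 0.00111). The converted call over monocyte-derived libraries (2.17-fold, adjusted p = 0.0319) had 0.00433 to 0.127 over the alternatives. It was lost on leaving out monocyte-derived library 1 or 2 (0.11 and 0.109), without converted library 2 (0.127), with no filter on low counts (0.126) and in a fit of these groups alone (0.0674).

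Ighm (chromosome 12, 113418558 to 113422730) encodes the constant region of IgM, the first isotype a B cell carries. It had 39.4, 17.8 and 43 CPM among monocyte-derived, 25.2, 73.7 and 27.4 among converted and 490.7, 542 and 604 among resident libraries. Monocyte-derived and converted libraries overlapped, with 2 of the 3 converted libraries below 2 of the monocyte-derived ones. The converted minus monocyte-derived log2 difference was 0.33 ± 0.43 (adjusted p = 0.542), and without converted library 2 it was -0.34. Resident libraries were 16.3-fold above monocyte-derived (adjusted p = 9.39e-05) and 13-fold above converted ones (log2 3.70 ± 0.46, adjusted p = 0.00305). The second log2 difference was 4.37 without converted library 2.

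Ighd (chromosome 12, 113406604 to 113416324), the constant region of IgD, is made from the same transcript as Ighm in mature naive B cells by alternative splicing. It had 0.96, 0.925 and 4.73 CPM among monocyte-derived, 10.8, 15.3 and 13.4 among converted and 55.6, 58.2 and 85.3 among resident libraries. The groups did not overlap. Converted libraries were 6.15-fold above monocyte-derived ones (log2 2.62 ± 0.50, adjusted p = 0.00178), and without monocyte-derived library 3 the log2 difference was 3.79. Resident libraries were 31.1-fold above monocyte-derived ones (log2 4.96, and 6.13 without monocyte-derived library 3). They were 5.05-fold above converted ones (log2 2.34 ± 0.42, adjusted p = 0.0126). That p ran from 0.000342 to 0.074 over the alternatives and missed 0.05 on leaving out converted library 1 or 3 (0.0631 and 0.0569), without resident library 3 (0.0693) and with no filter on low counts (0.074).

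Igkc (chromosome 6, 70726435 to 70726966) followed the order without overlap, at 1.92, 2.72 and 8.74 CPM among monocyte-derived, 17.8, 28.3 and 17.2 among converted and 186, 202 and 236 among resident libraries. Converted libraries were 4.84-fold above monocyte-derived ones (adjusted p = 0.00223) and resident libraries 9.85-fold above converted ones (log2 3.30 ± 0.41, adjusted p = 0.00305). Resident libraries were 47.7-fold above monocyte-derived ones. Without monocyte-derived library 3 the log2 differences from that group were 3.19 for converted and 6.49 for resident libraries, beside 2.28 and 5.58 with it.

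Ighm and Ighd did not keep the same ratio in the 3 groups. There were 41, 19.2 and 9.1 Ighm reads per Ighd read among monocyte-derived, 2.34, 4.82 and 2.05 among converted and 8.82, 9.31 and 7.08 among resident libraries. All converted libraries lay below all others. In monocyte-derived libraries 1 and 2 the ratio rests on 18 and 16 Ighd reads. The ratio was set up after the single values had been seen, so it is a description with no test.

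Lambda light chain constant genes had the same order as Igkc. Iglc1, Iglc2 and Iglc3 were each higher in resident than in converted libraries (13.6-, 11.3- and 12.7-fold) and in converted than in monocyte-derived ones (7.22-, 4.23- and 5.24-fold). These near-identical genes can share reads, so their split is uncertain. The lambda genes together made up 22.1%, 22.5% and 23% of light chain constant reads in resident libraries and 16.7%, 19.4% and 20.3% in converted ones. The 95% Wilson intervals, which cover counting error only, spanned 20.9% to 24.1% over the resident libraries. Those of converted libraries 2 and 3 (16.6% to 22.6% and 16.6% to 24.6%) overlapped with them, and that of converted library 1 (13.5% to 20.6%) lay just below. Class-switched constant genes were scarce: Ighg2b had 1.82, 2.88 and 2.2 CPM and Ighg3 2.04, 3.04 and 2.35 CPM in resident libraries, while Igha had 0.77, 0.577 and 0.196. None of these 3 had a read in a monocyte-derived library. Ighg1 did, with 3, 0 and 2 reads there, 1, 1 and 0 in converted and 8, 13 and 20 in resident libraries.

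Heavy chain variable segments, each of which a B cell clone joins once to make its receptor, held 53 reads among monocyte-derived, 225 among converted and 3436 among resident libraries, and kappa segments 101, 465 and 4990. In resident libraries 99 of the 113 annotated heavy chain segments were read and 92 of the 100 kappa segments. The most read were Ighv11-2, with 7.19% of heavy chain segment reads over all libraries, and Igkv14-126, with 9.305% of kappa segment reads. As background, these segments pair in B-1 cells that bind phosphatidylcholine. The next heavy chain segments were Ighv6-3, Ighv3-6, Ighv7-3 and Ighv9-3, and the next kappa segments Igkv1-117, Igkv1-110, Igkv6-15 and Igkv10-96. Among resident libraries 1, 2 and 3 the share of Ighv11-2 was 9.97% (95% Wilson interval 8.19% to 12.1%), 5.1% (3.98% to 6.51%) and 7.13% (5.88% to 8.63%). In converted libraries it had 1, 8 and 1 reads of 72, 98 and 55, with Wilson intervals of 0.246% to 7.46%, 4.19% to 15.3% and 0.322% to 9.61%. Of these only the interval of library 2 covers all 3 resident shares. Igkv4-91, which pairs with Ighv12-3 in other B-1 cells of this kind, had 0, 19 and 2 reads in the converted libraries, so all but 2 of them came from library 2. Reads of similar segments may have been split or lost in counting.

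Transcription factors of the B lineage showed the same order. All 5 listed were higher in resident than in both other groups, and Pax5, Ebf1 and Pou2af1 were also higher in converted than in monocyte-derived libraries, while Ikzf3 and Spib did not pass there. Their summed level was 3.12 to 10.6 CPM among monocyte-derived, 10.1 to 23.3 among converted and 141 to 191 among resident libraries.

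Pax5 (chromosome 4, 44524757 to 44710487), which commits cells to the B lineage and keeps them there, had 0.107, 0.0578 and 0.13 CPM among monocyte-derived, 0.648, 1.79 and 1.07 among converted and 8.53, 10.1 and 13.3 among resident libraries. Only 1 or 2 reads were behind each monocyte-derived value. Resident libraries were 9.09-fold above converted ones (log2 3.18 ± 0.34, adjusted p = 0.0012). Converted libraries were 11.3-fold above monocyte-derived ones (adjusted p = 0.000574), a fold that rests on those few reads. Ebf1 (chromosome 11, 44617317 to 45008091), which acts upstream of Pax5, had 0.213, 0.347 and 0.453 CPM, then 1.54, 2.1 and 1.63, then 16.5, 14.8 and 18.7. The groups were far apart and the libraries of each close together. Resident libraries were 9.45-fold above converted ones (log2 3.24 ± 0.22, adjusted p = 0.000173) and 49.3-fold above monocyte-derived ones (adjusted p = 2.21e-07). The latter fold rests on 4, 6 and 7 reads in the monocyte-derived libraries.

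Pou2af1, the coactivator OCA-B that acts with octamer-binding factors on immunoglobulin genes, had a mean of 2.64 ± 1.98 CPM among monocyte-derived, 7.54 ± 3.53 among converted and 81 ± 16.3 among resident libraries (SD, n = 3). The resident level was 10.7-fold the converted one (adjusted p = 0.00281). The converted call over monocyte-derived libraries (2.92-fold, adjusted p = 0.0212) had 0.0013 to 0.0988 over the alternatives. It was lost on leaving out monocyte-derived library 1 or 2 (0.0802 and 0.077), without converted library 2 (0.0827), with no filter on low counts (0.0988) and in a fit of these groups alone (0.0548). Without monocyte-derived library 3 the log2 differences of converted and resident from monocyte-derived libraries were 2.33 and 5.75, beside 1.55 and 4.97.

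Ikzf3, which encodes Aiolos, an Ikaros family factor of mature B cells, had 1.29 ± 0.922, 1.71 ± 0.851 and 25.4 ± 4.14 CPM in the 3 groups (SD, n = 3). Resident libraries were 14.7-fold above converted ones (adjusted p = 0.00169), and the 2 lower groups overlapped (log2 0.44, adjusted p = 0.478; -0.02 without converted library 2). Resident minus monocyte-derived log2 was 4.32, and 5.02 without monocyte-derived library 3. Spib, an ETS factor related to PU.1, had 1.74 ± 1.05, 2.6 ± 2.16 and 25.3 ± 3.71 CPM. Its resident level was 9.71-fold the converted one (log2 3.28, adjusted p = 0.00883; log2 4.22 without converted library 2). The lower groups overlapped here too (converted minus monocyte-derived log2 0.59, adjusted p = 0.434; -0.34 without converted library 2).

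Upstream sequences of 4 members are shown because these members cover the different patterns of the list. A further reason is that 3 of them hold letters of motifs linked to the factors just described. For the octamer the link is to the factors Pou2af1 acts with. Vpreb3, at a low level, and Cd22 were highest in resident libraries, and Tnfrsf13b was highest in monocyte-derived ones. Bank1 kept the largest share of its resident level in converted libraries among members called between these groups. Promoters come from RefSeq (GRCm38.p6) for 21 of the 30 members; Blk, Cd79b, Cxcr5, Ighd, Ighm, Igkc, Ikzf3, Ms4a1 and Mzb1 had no entry. Each is written 5′ to 3′ and ends at the base before the RefSeq transcription start. Capitals mark ATTTGCAT (the octamer), TCCC and GGGA spaced by 2 bases (EBF) or AGGAAGT (PU.1 and Spi-B), searched on both strands, and no matches overlap. The octamer and the EBF letters lie on the printed strand, as does AGGAAGT in Tnfrsf13b, while Vpreb3 holds AGGAAGT on the other strand. For Cd22 the bases inside an annotated exon are left out, so its stretch is 148 bases long and the others 250. In GENCODE M21 the Vpreb3 and Cd22 stretches lie within the span of the gene, outside its exons, and those of Tnfrsf13b and Bank1 directly before it.
Vpreb3, chr10:75948050-75948299, plus strand: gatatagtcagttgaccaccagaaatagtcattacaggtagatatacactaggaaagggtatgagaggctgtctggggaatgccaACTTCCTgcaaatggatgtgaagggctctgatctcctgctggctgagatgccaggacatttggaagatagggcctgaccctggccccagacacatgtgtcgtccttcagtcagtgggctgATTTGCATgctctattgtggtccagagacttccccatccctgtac
Tnfrsf13b, chr11:61126505-61126754, plus strand: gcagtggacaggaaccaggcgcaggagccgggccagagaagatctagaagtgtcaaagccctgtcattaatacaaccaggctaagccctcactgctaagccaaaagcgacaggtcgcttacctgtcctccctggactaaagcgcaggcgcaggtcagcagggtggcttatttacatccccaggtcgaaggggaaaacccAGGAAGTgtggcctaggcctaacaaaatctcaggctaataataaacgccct
Cd22, chr7:30879029-30879176, minus strand: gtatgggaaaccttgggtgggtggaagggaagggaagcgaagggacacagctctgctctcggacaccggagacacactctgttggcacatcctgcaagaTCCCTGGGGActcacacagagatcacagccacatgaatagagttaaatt
Bank1, chr3:136326067-136326316, minus strand: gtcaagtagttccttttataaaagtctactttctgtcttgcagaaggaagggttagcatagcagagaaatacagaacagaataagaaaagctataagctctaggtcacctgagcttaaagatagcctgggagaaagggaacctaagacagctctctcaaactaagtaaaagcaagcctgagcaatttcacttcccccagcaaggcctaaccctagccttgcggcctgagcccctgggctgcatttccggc

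In the 250 bases before the start, the octamer was found in 2 of the 21 member genes (Vpreb3 and Blnk) and in 1.6% of 32851 RefSeq promoters. The EBF letters were found in 1 (Cd22) and in 0.779%, and AGGAAGT in 5 (Blnk, Cd79a, Fcrl5, Tnfrsf13b and Vpreb3) and in 7.69%. Members were counted by gene, over 27 promoters of the 21 genes, and the percentages by promoter, so the shares are not on the same scale. The matches of Blnk and Cd79a overlap an annotated exon in GENCODE M21 and were counted all the same. In Vpreb3 the octamer lies 45 to 38 bases before the start, and in Cd22 the EBF match 49 to 40 bases before it. In Tnfrsf13b AGGAAGT lies 51 to 45 bases before the start. These motifs and promoters were chosen after matches in member promoters, including those of variants of the same letters, had been seen, so the counts are a description of letters and no measure of binding.

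Surface coreceptors and inhibitory receptors, which tune the antigen receptor or bind antibody and complement, numbered 8 members, of which 7 were higher in resident libraries than in each of the other groups. Cr2 was the exception. Ms4a1 (chromosome 19, 11249675 to 11266241), which encodes CD20, had 2.61, 3.18 and 6.22 CPM among monocyte-derived, 9.77, 30.6 and 12.7 among converted and 190, 203.5 and 249 among resident libraries. The groups did not overlap. Resident libraries were 54.2-fold above monocyte-derived (adjusted p = 1.24e-05) and 12.1-fold above converted ones (log2 3.60 ± 0.42, adjusted p = 0.00261; 4.25 without converted library 2). Converted libraries were 4.47-fold above monocyte-derived ones (log2 2.16, adjusted p = 0.00336; log2 1.51 without converted library 2).

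Cd22 (chromosome 7, 30865402 to 30880342), a sialic acid-binding inhibitory coreceptor, had 2.61, 7.51 and 5.25 CPM among monocyte-derived, 5.33, 11.8 and 7.26 among converted and 78.2, 86.5 and 110 among resident libraries. Only the resident libraries stood apart. They were 11.2-fold above converted ones (log2 3.49 ± 0.36, adjusted p = 0.00135), and the converted minus monocyte-derived log2 difference was 0.67 ± 0.38 (adjusted p = 0.169). Siglecg, an inhibitory receptor that restrains B-1 cells, had 6.29, 2.43 and 7.58 CPM in monocyte-derived and 2.29, 5.25 and 2.25 in converted libraries, beside 33.95, 30.8 and 37.4 in resident ones. The lower groups overlapped, with the lower mean in converted libraries (log2 -0.73, adjusted p = 0.184). That difference passed in 2 of 17 alternatives, without monocyte-derived library 2 (0.0256) and without converted library 2 (0.0392), in a range of 0.0256 to 0.477. Resident libraries were 10.4-fold above converted ones (adjusted p = 0.00305).

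Fcer2a (chromosome 8, 3681737 to 3694175) encodes CD23, the low-affinity IgE receptor that marks follicular B cells. It had 0.267, 0.463 and 0 CPM among monocyte-derived, 3.09, 3.52 and 2.31 among converted and 11.3, 12.2 and 16.6 among resident libraries. The order was kept without overlap, with no read in monocyte-derived library 3. Converted libraries were 11.6-fold above monocyte-derived ones (log2 3.53, adjusted p = 0.000306; log2 4.3 without monocyte-derived library 2), a fold that rests on few reads. Resident libraries were 4.49-fold above converted ones (log2 2.17 ± 0.36, adjusted p = 0.00824), with 2.9e-11 to 0.0615 over the alternatives and 0.0615 without resident library 3. The resident minus monocyte-derived log2 was 5.70, and 6.48 without monocyte-derived library 2.

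Cd55, a brake on complement found on many cell types, had 0.427, 0.405 and 1.81 CPM among monocyte-derived, 3.44, 7.41 and 5.51 among converted and 19.4, 24 and 21.7 among resident libraries. The groups were ordered without overlap. Converted libraries were 6.36-fold above monocyte-derived ones (log2 2.67, adjusted p = 0.00143; log2 3.69 without monocyte-derived library 3, where the resident log2 went from 4.66 to 5.68). Resident libraries were 3.98-fold above converted ones (adjusted p = 0.0187), over a range of 6.58e-05 to 0.0807. That call was lost on leaving out converted library 1 or 3 (0.0744 and 0.0758) and on leaving out resident library 1, 2 or 3 (0.0674, 0.0712 and 0.0807). Fcmr, the receptor for the constant part of IgM, had 0.231 ± 0.151, 1.51 ± 0.467 and 10.8 ± 3.82 CPM in the 3 groups (SD, n = 3). It was 6.34-fold higher in converted than in monocyte-derived libraries (log2 2.67, adjusted p = 0.00136; log2 3.32 without monocyte-derived library 2). Its resident level was 7.1-fold the converted one (adjusted p = 0.00265), and its resident minus monocyte-derived log2 of 5.49 was 6.16 without monocyte-derived library 2. The monocyte-derived values of Fcmr rest on 3, 7 and 2 reads.

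Fcrl5, an Fc receptor-like protein of B-1 and marginal zone B cells, was read at low depth outside the resident group. It had 0.16, 0.173 and 0.259 CPM among monocyte-derived, 0.149, 0.105 and 0.338 among converted and 4.07, 3.04 and 4.75 among resident libraries. Both lower groups were at 2 to 6 reads per library and overlapped. Resident libraries were 19.7-fold above converted ones (log2 4.3 ± 0.41, adjusted p = 0.000919). Cr2, the complement receptor CD21 of follicular and marginal zone cells, had 0, 0.694 and 0 CPM among monocyte-derived, 0.0498, 0.578 and 0.0563 among converted and 0.44, 0.734 and 1.81 among resident libraries. All groups overlapped and no comparison passed, with an adjusted p of 0.16 for resident against monocyte-derived libraries. That p ran from 0.0185 to 0.463, and passed with limma-voom (0.0386) and without monocyte-derived library 2 (0.0185), the only library of its group with reads.

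**Figure D2:**
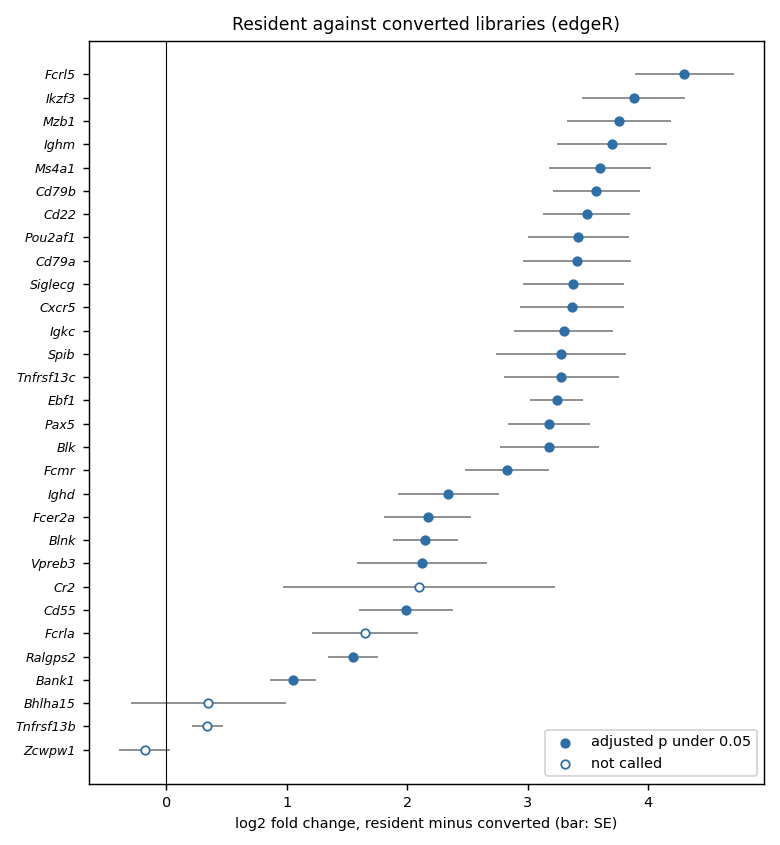
Log2 fold change of each of the 30 genes, resident minus converted libraries, from edgeR; bars are standard errors and filled points passed an adjusted p of 0.05. The 25 filled points run from 1.05 for Bank1 to 4.3 for Fcrl5, and Zcwpw1 is the only member below 0.

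Receptor signalling members divided. Bank1 (chromosome 3, 136053363 to 136326066), an adaptor that links the antigen receptor to calcium release, had 1.6, 1.62 and 3.17 CPM among monocyte-derived, 37.5, 47.8 and 35.2 among converted and 74.2, 84.5 and 90.7 among resident libraries. The converted libraries were close to one another and far above the monocyte-derived ones. They were 19.1-fold higher than those (log2 4.25 ± 0.24, adjusted p = 6.03e-07), the largest converted difference among the members. Their mean was 48.3% of the resident mean, beside a median of 10.8% over the 30 members. Resident libraries were 2.07-fold above converted ones (log2 1.05 ± 0.19, adjusted p = 0.0116), with 6.87e-06 to 0.0689 over the alternatives. The call was lost on leaving out converted library 1 or 3 (0.06 and 0.0577) and without resident library 3 (0.0689). Bank1 overlaps Gm31243 on the opposite strand.

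Blnk (chromosome 19, 40928927 to 40994535), the adaptor that joins the receptor's kinases to phospholipase C and is also known from macrophages, ran the other way. It had 52.7, 92.3 and 94.9 CPM among monocyte-derived, 6.18, 11.8 and 10.1 among converted and 40.4, 40.8 and 43.5 among resident libraries. No groups overlapped, and the order was monocyte-derived, resident, converted. Converted libraries were lower than monocyte-derived ones by 8.53-fold (log2 -3.09 ± 0.27, adjusted p = 1.6e-05). Resident libraries were lower than monocyte-derived ones by 1.92-fold (log2 -0.94 ± 0.25, adjusted p = 0.0106), with 0.000436 to 0.0508 over the alternatives and 0.0508 with no filter on low counts. Against converted libraries, resident ones were 4.44-fold higher (log2 2.15 ± 0.27, adjusted p = 0.00305).

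Blk, a Src family kinase of B cells, had 1.06 ± 0.597, 2.24 ± 1.17 and 20.4 ± 2.67 CPM in the 3 groups (SD, n = 3). Resident libraries were 9.09-fold above converted ones (adjusted p = 0.00305). Converted libraries overlapped with monocyte-derived ones (log2 1.09, adjusted p = 0.0802), and the difference passed in 3 of 17 alternatives in a range of 0.0328 to 0.321. These were DESeq2 (0.0328), the replicate block (0.0408) and the fit without converted library 1 (0.0481). Ralgps2, an exchange factor for Ral GTPases, was at 4.45 to 7.36 CPM in monocyte-derived and 5.73 to 8.09 in converted libraries, which overlapped, and at 18.3 to 24.5 in resident ones. Its resident level was 2.94-fold the converted one (adjusted p = 0.00366). Ralgps2 overlaps Angptl1 on the opposite strand.

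Receptors for survival factors and homing diverged as well. Tnfrsf13b (chromosome 11, 61126755 to 61149372) encodes TACI, a receptor for BAFF and APRIL that has also been described on macrophages. It had 57, 42 and 52.4 CPM among monocyte-derived, 20.1, 20.1 and 20.6 among converted and 22.9, 24.9 and 29.1 among resident libraries. Monocyte-derived libraries lay above all others, and converted libraries just below resident ones. Relative to monocyte-derived libraries the level was lower by 2.49-fold in converted (log2 -1.32 ± 0.13, adjusted p = 2.78e-05) and by 1.97-fold in resident libraries (log2 -0.98 ± 0.13, adjusted p = 0.000181). Resident and converted libraries did not differ past the threshold (log2 0.34, adjusted p = 0.18, with 0.0432 in a fit of these groups alone and 0.0432 to 0.504 over the alternatives).

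Tnfrsf13c, the BAFF receptor on which conventional B cells depend, had 3.09, 0.578 and 0.842 CPM among monocyte-derived, 1.65, 1.52 and 1.01 among converted and 13.6, 13.5 and 13.9 among resident libraries. Resident libraries stood apart and lay within a narrow range, 9.74-fold above converted ones (adjusted p = 0.0052). The lower groups overlapped. The resident minus monocyte-derived log2 of 3.15 was 4.27 without monocyte-derived library 1, and without that library the converted level was higher too (log2 0.99, adjusted p = 0.0224, in a range of 0.0224 to 0.988, and log2 -0.13, adjusted p = 0.852 with it). Cxcr5, the receptor that guides B cells to follicles, had 0.373, 0.116 and 1.36 CPM, then 2.14, 3.15 and 1.63, then 20.8, 25.2 and 25.9. The groups were ordered without overlap. Resident libraries were 10.3-fold above converted ones (adjusted p = 0.00307), and converted ones 3.88-fold above monocyte-derived ones (log2 1.95, adjusted p = 0.0147). That p ran from 0.000323 to 0.0565, with 0.0519 without converted library 2 and 0.0565 in a fit of these groups alone. Without monocyte-derived library 3 the log2 differences were 3.18 for converted and 6.55 for resident libraries, the latter beside 5.32.

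Of the secretory members, Mzb1, a chaperone of IgM assembly, had 0.427, 0.405 and 1.36 CPM among monocyte-derived, 0.947, 3.36 and 1.74 among converted and 23.3, 28.6 and 30.1 among resident libraries. Resident libraries were 13.5-fold above converted ones (log2 3.76, adjusted p = 0.0023; 4.35 without converted library 2). The lower groups overlapped, and their call (2.82-fold, adjusted p = 0.0435) was lost in 11 of 17 alternatives, over a range of 0.00657 to 0.175. It was lost on leaving out monocyte-derived library 1 (0.122) or 2 (0.13), or one of converted library 2 (0.175) and 3 (0.0662), or any resident library (0.0577, 0.0607 and 0.0602). Without monocyte-derived library 3 the log2 differences were 2.26 for converted and 6.01 for resident libraries, beside 1.5 and 5.26. Bhlha15, the secretory cell factor MIST1, was at 0.0498 to 1.12 CPM in all libraries. No comparison passed, with an adjusted p of 0.238 for resident against monocyte-derived libraries; that p ran from 0.0389 to 0.384, and was 0.0405 without converted library 1 and 0.0389 in a fit of these groups alone. Without converted library 1 the converted minus monocyte-derived difference passed too (log2 1.25, adjusted p = 0.0295, in a range of 0.0295 to 0.937, beside 0.69 and 0.447).

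The remaining members were low. Vpreb3, a chaperone-like protein of the surrogate light chain family, was at 0 to 0.453 CPM among monocyte-derived, 0.399 to 0.788 among converted and 1.99 to 2.99 among resident libraries. Resident libraries were 11.4-fold above monocyte-derived ones (log2 3.52, adjusted p = 0.00117), with a log2 of 2.90 and 4.44 without monocyte-derived library 1 or 3 and of 4.16 with limma-voom. They were 4.36-fold above converted ones at an adjusted p of 0.0491, a call lost in 9 of 17 alternatives (0.00233 to 0.207), among them those that left out any one converted or resident library (0.103 to 0.207) or monocyte-derived library 2 (0.0509). Converted against monocyte-derived libraries did not pass (adjusted p = 0.128), and passed without monocyte-derived library 3 (0.0389, in a range of 0.0389 to 0.303). Fcrla, an Fc receptor-like protein kept inside B cells, had 2.35, 1.445 and 4.14 CPM, then 2.44, 2.89 and 0.844, then 7.59, 5.98 and 6.02. Resident libraries lay above all others. They were 2.48-fold above monocyte-derived ones (adjusted p = 0.0295, over 0.00923 to 0.0913), a call lost on leaving out monocyte-derived library 1 or 2 (0.0612 and 0.0762), on leaving out resident library 1, 2 or 3 (0.0913, 0.058 and 0.0597) and in the fit with replicate number as a block (0.0604). Against converted libraries the adjusted p was 0.0582 and passed in 7 of 17 alternatives (0.0062 to 0.211), among them those without monocyte-derived library 1, 2 or 3 (0.0391, 0.0382 and 0.0348).

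Zcwpw1, a reader of histone methylation best known from meiosis, was flat at 2.19, 2.83 and 3.11 CPM among monocyte-derived, 3.29, 3.52 and 3.32 among converted and 2.59, 3.15 and 3.18 among resident libraries. Its log2 difference was -0.18 ± 0.21 between resident and converted libraries (adjusted p = 0.681) and 0.14 ± 0.21 between resident and monocyte-derived ones (adjusted p = 0.621). It overlaps Pilra, a myeloid receptor gene, on the opposite strand.

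**Figure D3:**
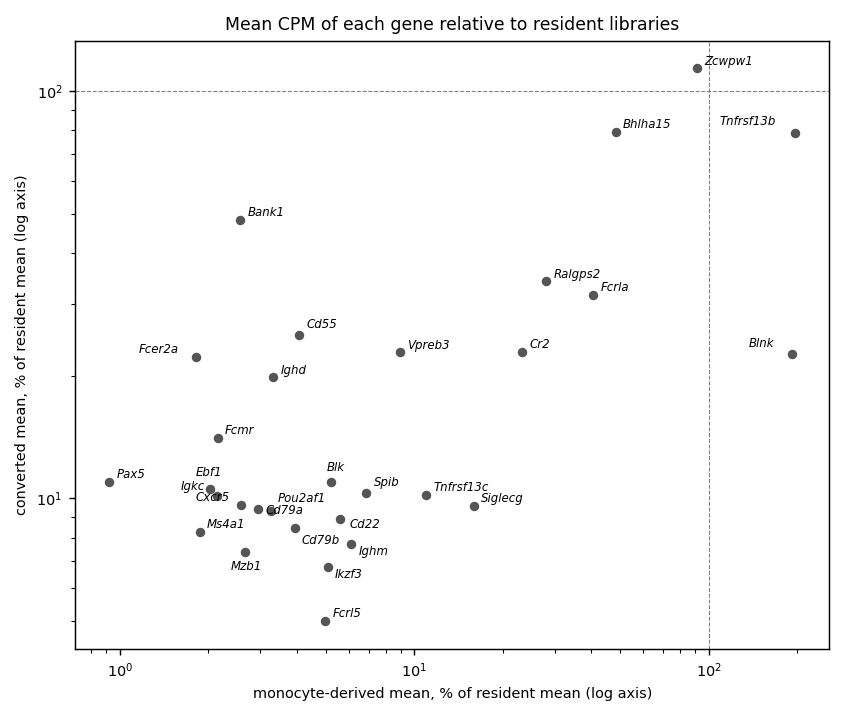
Mean CPM of each gene in converted libraries (vertical) and in monocyte-derived libraries (horizontal) as a percentage of its resident mean, both on log axes; dashed lines mark 100%. Many genes lie near 10% on the vertical axis, Bank1 stands at 48.3% with 2.56% on the horizontal axis, and Blnk and Tnfrsf13b lie to the right of the vertical line.

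Relative to the resident mean, 11 of the 30 members were at 10% or less in converted libraries and 19 at 20% or less, with a median of 10.8% and a range of 4.99% to 114%. The share of all genes at or under these levels was not counted. The member counts rest on single libraries: without converted library 2 there were 18 members at 10% or less and 22 at 20% or less, with a median of 8.25%. Members at 10% or less numbered 7 without converted library 1, without converted library 3 or without resident library 3. The lowest value belonged to Fcrl5, at few reads, and without converted library 2 to Ighm (4.82%). In monocyte-derived libraries the median was 5.04%, with a range of 0.921% to 197%. The members above 20% in converted libraries included Bank1, Cd55 (25.1%), Fcer2a (22.2%) and Blnk (22.6%), and Ighd was at 19.8%. Without converted library 2 Bank1 stood at 43.7%, Cd55 at 20.6%, Fcer2a at 20.2%, Blnk at 19.6% and Ighd at 18.2%. Those at both ends of the monocyte-derived range were Pax5 and Tnfrsf13b.

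Members were also set against Cd79a within each library, as reads per 100 Cd79a reads, a ratio that does not depend on library size. Cd79a had 256 reads among monocyte-derived, 941 among converted and 10238 among resident libraries. Of the 29 other members 16 had a converted ratio within 1.5 times of the resident one, 12 were above and 1, Fcrl5, was below. In monocyte-derived libraries 11 were within 1.5 times of the resident ratio, 16 were above and 2, Ms4a1 and Pax5, were below. Pou2af1 had 51, 44.9 and 42.3 reads per 100 Cd79a reads in converted and 47, 43.6 and 47 in resident libraries, and Cd79b 69.7, 67.1 and 71.8 beside 75.8, 80.1 and 75.1. These members kept their ratio to Cd79a across a 10.6-fold difference in its level. Bank1 did not: it had 362, 185 and 259 reads per 100 Cd79a reads in converted libraries, 48.8, 51.4 and 42.7 in resident ones and 61.2, 49.1 and 32.7 in monocyte-derived ones. Ighd had 104, 59.1 and 98.8 in converted and 36.6, 35.4 and 40.2 in resident libraries, and Fcer2a 29.8, 13.6 and 17 beside 7.46, 7.4 and 7.83. For these 3 genes every converted library lay above every resident one, and converted library 2, with the most Cd79a, had the lowest ratio for Bank1 and Ighd as for Fcer2a. In monocyte-derived libraries Ighm had 1506, 540 and 443 reads per 100 Cd79a reads, above the 284 to 329 of resident ones, and Siglecg and Tnfrsf13c were 5.63 and 4.1 times the resident ratio in the pooled reads. The ratio and the limit of 1.5 times were set up after the values had been seen and are a description with no test.

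**Figure D4:**
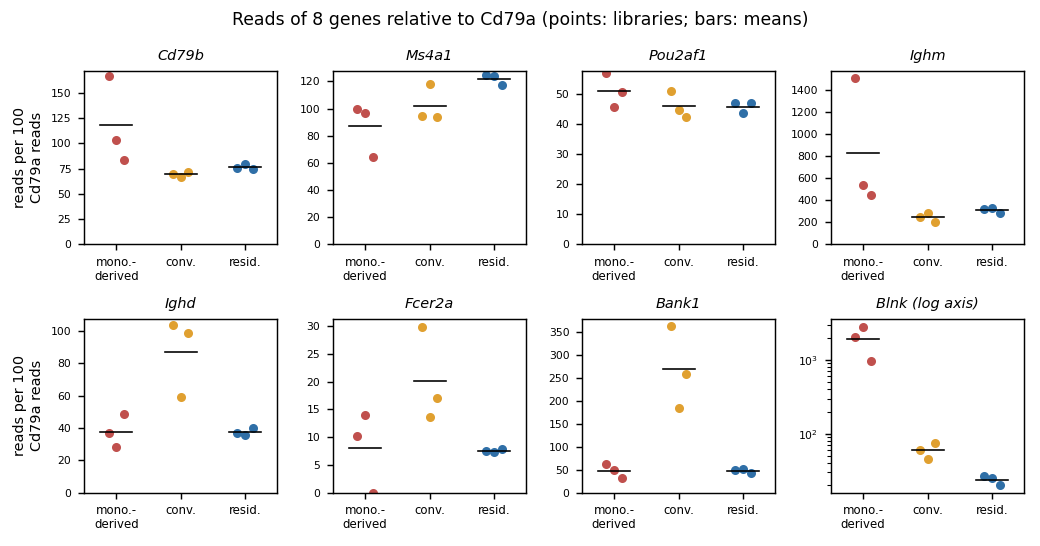
Reads of 8 genes per 100 Cd79a reads in each library, on linear axes from 0 except for Blnk, which has a log axis; points are libraries and bars are group means. Cd79b, Ms4a1 and Pou2af1 have similar ratios in converted and resident libraries, while Ighd, Fcer2a, Bank1 and Blnk are higher in all converted than in all resident libraries.

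Leaving out Blnk, Cd55, Ralgps2, Zcwpw1 and Tnfrsf13b, genes that are also known from other cells, and the 3 immunoglobulin chains, the other 22 members summed to 41.4 ± 17 CPM among monocyte-derived, 128 ± 48.7 among converted and 1018 ± 153 among resident libraries (SD, n = 3). By library this was 32.3, 30.9 and 61.1 CPM, then 96.1, 184 and 104, then 895, 969 and 1190. No group overlapped another. With these 5 members the sums were 181 ± 34.4, 174 ± 53.7 and 1131 ± 162 CPM, and the monocyte-derived and converted libraries overlapped. Tnfrsf13b was added to the genes left out after its values were seen. Bank1, which was kept among the 22, made up 37.5, 47.8 and 35.2 CPM of the converted sums. In the monocyte-derived sums it made up 1.6, 1.62 and 3.17 CPM. A large part of the step between these groups is therefore Bank1, and a sum without it was not made. The immunoglobulin chains summed to 40.1 ± 17.6, 76.4 ± 35.5 and 820 ± 97.6 CPM.

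Other genes of B cell receptor signalling numbered 24, all tested. Of these partners 4 were higher in resident than in converted libraries (4.26% of all genes) and 20 not called, with a median log2 of 0.15. Against monocyte-derived libraries 10 were higher and 6 lower in resident ones (25.7% and 24.9% of all genes). In converted ones 7 were higher and 7 lower (25.8% and 24.9%), which is near the share over all genes. Hvcn1, a proton channel, was at 13.2 to 16.6 CPM in resident and 4.95 to 6.83 in converted libraries (adjusted p = 0.0121, over 1.01e-05 to 0.0689, with 0.0576 without converted library 3 and 0.0689 without resident library 3). Fcgr2b, the inhibitory IgG receptor that macrophages also carry, had 1082, 1046 and 1030 CPM among monocyte-derived and 1169, 1160 and 1218 among converted libraries. Resident libraries had 1305, 1314 and 1245 CPM and were called higher than monocyte-derived ones.

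Markers of B-1 cells were 10, of which 9 were tested. Of these 3 were higher in resident than in converted libraries (4.26% of all genes), with 6 not called. Against monocyte-derived libraries 5 were higher and 2 lower in resident ones, and 3 were higher and 3 lower in converted ones, where 24.9% to 25.8% of all genes were called in each direction. The lower ones were Ptpn22, a phosphatase that lymphocytes and macrophages share, and Spn, the sialophorin CD43. Ptpn22 had a log2 of -1.22 in resident (adjusted p = 0.000259) and -1.59 in converted libraries (adjusted p = 5.05e-05), and Spn -0.95 (adjusted p = 0.00431) and -0.84 (adjusted p = 0.00867). Il5ra, the IL-5 receptor that B-1 cells need, had 0.533, 0.116 and 0.194 CPM among monocyte-derived, 1.2, 1.84 and 1.12 among converted and 10.5, 11.8 and 15.2 among resident libraries. The order was kept without overlap, and resident libraries were 8.97-fold above converted ones (adjusted p = 0.00111). Zbtb32, a repressor of B-1 cell renewal, had 12.5 ± 1.92 CPM in resident and 1.23 ± 0.621 in converted libraries (10.1-fold, adjusted p = 0.00127), and 2.94 ± 1.02 in monocyte-derived ones. It was the third lower in converted than in monocyte-derived libraries (log2 -1.24, adjusted p = 0.0176, over 0.00294 to 0.067, a call lost in 4 of 17 alternatives). Bhlhe41, a factor B-1a cells depend on, had 2.52 ± 0.697 and 0.141 ± 0.198 CPM (adjusted p = 0.0102, over 1.24e-05 to 0.0624, with 0.0569 without converted library 3 and 0.0624 without resident library 3). Cd5, which marks B-1a cells and T cells, was not tested, at 12, 9 and 28 reads in resident, 1, 4 and 0 in converted and 0, 0 and 1 in monocyte-derived libraries.

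Among 10 markers of follicular and marginal zone B cells, 5 were higher in resident than in converted libraries (4.26% of all genes) and 5 not called. Against monocyte-derived libraries 7 were higher and 0 lower in resident ones (25.7% and 24.9% of all genes). In converted ones 6 were higher and 3 lower (25.8% and 24.9%). Ly6d, a surface protein present from the earliest B cell stages, had 35.3 ± 5.64 CPM in resident, 3.31 ± 1.01 in converted and 1.09 ± 0.416 in monocyte-derived libraries (resident 10.7-fold above converted, adjusted p = 0.000425). The class II accessory chains H2-DMb2 and H2-Ob had 88.5 ± 11.1 and 38.1 ± 6.2 CPM in resident and 9.55 ± 3.75 and 6.76 ± 2.19 in converted libraries. In monocyte-derived libraries H2-DMb2 was at 49.1 ± 22.5 CPM, above the converted level (adjusted p = 0.000588), so it did not follow the order of the members. Of 11 plasma cell markers 9 were tested. Of these 2 were higher in resident than in converted libraries (4.26% of all genes), with 7 not called. Against monocyte-derived libraries 3 were higher and 3 lower in resident ones (25.7% and 24.9% of all genes). In converted ones 2 were higher and 3 lower (25.8% and 24.9%). The lower ones were Xbp1, Sdc1 and Prdm1 in both comparisons. Jchain, the joining chain of secreted antibody, had 0, 0 and 7 reads in monocyte-derived libraries. It had 0, 0 and 2 reads in converted and 2, 3 and 8 in resident libraries. Of 7 early B cell markers only Il7r was tested, and Rag1 and Vpreb2 had no read in any library.

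Transcripts of other lymphocytes were present beside those of B cells, and several were also higher in resident than in converted libraries. Over 17 T cell markers, among them Cd3e, Cd3d and Trac, the summed level was 8.64 to 31.9 CPM among monocyte-derived, 3.88 to 11.6 among converted and 32.9 to 55.8 among resident libraries. Of the 15 tested, 7 were higher in resident than in converted libraries (4.26% of all genes) and 8 not called. The median log2 was 2.84, beside 3.21 over the B cell members. Resident libraries lay wholly above converted ones for 15 of the 17 (17.7% of all genes). The 8 NK cell markers summed to 22 to 112 CPM among monocyte-derived, 2.59 to 3.73 among converted and 20.6 to 31.3 among resident libraries. Resident libraries had 5 of the 7 tested higher than converted ones (4.26% of all genes), with a median log2 of 2.94. For all 8 they lay wholly above converted libraries (17.7% of all genes). For 9 mast cell and eosinophil markers the sums were 7.31 to 15, 1.07 to 3.05 and 8.12 to 11.6 CPM, and for 9 neutrophil markers 19 to 53.35, 1.595 to 2.1 and 1.36 to 2.92 CPM. Of the 4 mast cell and eosinophil markers tested 3 were higher in resident than in converted libraries (4.26% of all genes). Of the 5 neutrophil markers tested none was called between these groups (6.07% of all genes). Between converted and monocyte-derived libraries the order differed from that of the B cell members: NK, mast cell and eosinophil and neutrophil sums were higher in every monocyte-derived than in every converted library. Among defining markers the eosinophil genes Prg2 and Epx had no read in any group, and the neutrophil genes S100a9, Ngp and Camp none in converted libraries. The part of cells other than macrophages in the B lymphocyte transcripts was not tested.

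**Figure D5:**
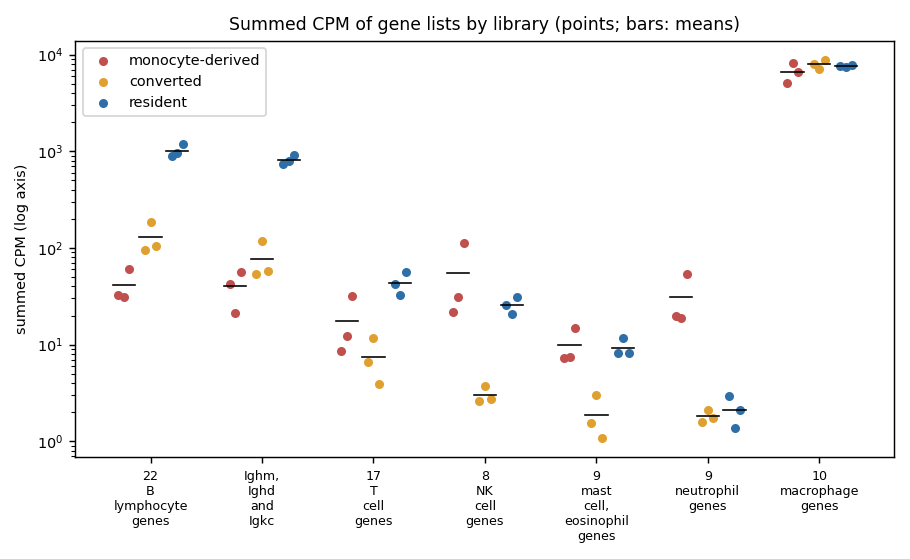
Summed CPM of 7 gene lists in each library on a log axis; points are libraries and bars are group means. The 22 B lymphocyte genes and the 3 immunoglobulin chains are highest in resident libraries, NK cell, mast cell and eosinophil sums are lowest in converted libraries, and macrophage sums are at 5087 to 8858 throughout.

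Beyond the lists, the protein-coding genes whose log2 CPM was most like the summed level of the members other than immunoglobulin chains were Lmo7, Rdh12, Plac8, Snn, Gimap3, Scn4a, Gimap4 and Il9r, of 11566 candidates. Likeness was the root mean square difference of log2 values centred over the 9 libraries, which was 0.21 for Lmo7 and 0.37 for Il9r. Before the log, 2 was added to each CPM, which shrinks differences of genes at few CPM and hardly alters those of the sum. Likeness is therefore not a likeness of folds. Lmo7 had a mean of 0.239 CPM among monocyte-derived, 0.563 among converted and 13.7 among resident libraries, and Plac8 5.2, 5.39 and 35.5. The sum had means of 181, 174 and 1131 CPM. Among the members themselves, with the same 2 added, Ikzf3 (0.23), Spib (0.25) and Blk (0.25) were closest to this sum. Blnk (1.52) and Tnfrsf13b (1.51) were farthest, although each of these members is part of the sum. In monocyte-derived libraries most of this sum is Blnk and Tnfrsf13b, which run against the other members. Set against the 22-gene sum instead, a choice added after seeing the data, the nearest genes were Cd209d (0.46), Cd209b (0.47), Clec4g (0.57), Gimap6 (0.64), Scn4a (0.73), Irf7 (0.75), Fosb (0.76) and Gimap1 (0.77). Scn4a is the 1 gene both sets of 8 share.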

How the data were processed

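RNA-seq of 9 libraries was analysed from raw read counts per gene, deposited by the authors. The submitters' processing notes name TopHat2 2.1.0, HTSeq and GRCm38 with no roles; no source used here gives the HTSeq version, annotation, strand setting or handling of multiply aligned reads. Lines naming no gene were left out; reads in no gene made up 4.02% to 5.66% and ambiguous reads 4.47% to 4.68%. Of 47729 identifiers 47224 matched GENCODE M21. Depth was 15220884 to 20496258 reads.

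Testing used edgeR 4.0.16 with limma 3.58.1 under R 4.3.3: filterByExpr (minimum count 10, total 15), TMM, robust quasi-likelihood F-test in one fit of 9 libraries, Benjamini-Hochberg adjustment over 13223 genes. Scripts were tested on simulated data. CPM use TMM-scaled library sizes. Alternatives were DESeq2 1.42.0, limma-voom, RLE and unscaled library sizes, no filter on low counts, immunoglobulin genes left out, fits of 2 groups, the replicate number as a block and each library left out; the sum without Tnfrsf13b, likeness to the 22-gene sum and percentages of the resident mean without single libraries were added after seeing the data.

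Members and lists were chosen with earlier results of these data known. By the naming rule all members are described; of added lists up to 3 called genes per comparison and direction with the highest CPM were eligible, or the 2 highest genes where none was called, of variable segments the 5 most read per locus, and the 8 most alike genes outside the lists. Cd5, Ighv12-3 and Igkv4-91, class-switched constant genes, Jchain, Ddx3y, Xist and markers named only as examples fall outside it and were chosen after their values were seen. Lists of other cell types are given by counts and sums. Some results for listed genes are not reported here.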

Additional observations from a re-analysis of the deposited data

How the results depend on the processing

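Of 1517 member values under the alternatives 1419 kept their direction and side of the threshold, and 98 did not, 23 of them by turning direction. With all 30 members in the fit, the number called was 26 to 28 for resident against monocyte-derived, 12 to 18 for converted against monocyte-derived and 20 to 27 for resident against converted libraries. For converted against monocyte-derived libraries Cr2, Fcrl5, Vpreb3 and Bhlha15 had an adjusted p in only 16 of the 17 alternatives. The fit without immunoglobulin genes, which holds 27 members, called 24, 14 and 21, all of them called in the full test. Single libraries left out gave 26 to 28, 12 to 18 and 20 to 26. The replicate block gave 26, 17 and 24, but libraries with the same number did not deviate together (r = -0.14 to 0.137), so the numbers do not pair them. Beside the calls named with each gene, the block ended those of Fcrla and Vpreb3 and added that of Blk.

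All values that turned direction belong to comparisons not called in the main test. For converted minus monocyte-derived libraries, limma-voom gave log2 -0.10 for Bhlha15, 0.87 for Cr2 and 0.21 for Tnfrsf13c, no filter on low counts 0.00 for Cr2 and 0.03 for Fcrl5, and the replicate block 0.04 for Cr2. Over the fits that leave out 1 library the log2 ran from -2.0 to 5.13 for Cr2, -0.58 to 0.29 for Fcrl5, -0.65 to 0.12 for Fcrla, -0.52 to 0.99 for Tnfrsf13c, -0.34 to 0.61 for Ighm, -0.02 to 1.14 for Ikzf3 and -0.34 to 1.04 for Spib. For resident minus converted libraries Bhlha15 ran from -0.21 to 0.93. The cause was not tested.

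The summed CPM of the members other than immunoglobulin chains in monocyte-derived libraries, 181.4, was 91.87 without Blnk, Cd55, Ralgps2 and Zcwpw1 and 41.42 without Tnfrsf13b as well, since those genes carry most of it. In converted and resident libraries each alternative sum lay within 1 SD. Depth limits Cr2, Fcrl5, Pax5, Ebf1, Fcmr, Bhlha15, Vpreb3 and Fcer2a, whose monocyte-derived libraries held 0 to 12 reads.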
